A study of Mus musculus with 8 samples.

Results

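The genes described here encode the SUMO proteins and the enzymes that attach them to other proteins, in subcutaneous fat of the groin (inguinal white adipose tissue, iWAT). They are 8 genes, namely Sumo2 and Sumo3 for the modifiers, Sae1 and Uba2 for the activating enzyme, and Pias1, Pias2, Pias3 and Pias4 for ligases. They were chosen by name, with earlier results of these data known, and the arrays carried 16 probes for them among 55681 in all. Of these 16 probes 15, for 7 of the 8 genes, were well above background, while the only Pias3 probe was above it on 0 of 8 arrays.

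SUMO is a small protein that is joined to lysines of other proteins, often transcription factors and chromatin proteins, and changes their partners, place or stability. It is first activated by an enzyme made of the subunits SAE1 and UBA2 and later placed on its target, often with the help of a ligase such as a PIAS protein. SENP proteases, SENP2 among them, trim SUMO precursors and take SUMO off its targets again. In fat cells, targets of SUMO include regulators of adipocyte genes such as PPARG and C/EBP factors.

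The series compared 4 samples from control mice with 4 from Senp2-aKO mice. Controls carried Senp2flox/flox, that is, Senp2 alleles flanked by loxP sites. In Senp2-aKO mice the same alleles were combined with Adipoq Cre, a recombinase driven by the adiponectin gene and active in adipocytes, so that other cells of the pad keep Senp2. All mice were put on a diet with 58 kcal% fat at 8 weeks of age, stayed on it for 12 weeks and were kept at 22 to 24 °C. Each value is the Cy3 signal of a probe on a 1-colour Agilent array. It is given as a log2 level after division by the 75th percentile of all signals on that array, so that 0 is that percentile, and levels of different probes are not comparable. A change is the mean log2 level of Senp2-aKO arrays minus that of controls, with a positive sign for higher in Senp2-aKO. Changes were tested with limma, a linear model with moderated variances, and passed at an adjusted p under 0.05 (Benjamini-Hochberg, over all 14730 genes or all 30508 kept probes, as named).

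A single slide, scanned once (1 slide, 1 scan), held all 8 arrays, with each group in its own row, so that row effects and group effects cannot be told apart. This percentile was 419 ± 18.2 in controls and 349 ± 27.1 in Senp2-aKO arrays (SD, n = 4 per group, exact permutation p = 0.0286, the smallest possible with 70 assignments). The Senp2 level was 2.46, 2.46, 2.52 and 2.37 in controls 1 to 4 and 2.19, 2.12, 2.20 and 2.22 in Senp2-aKO 1 to 4, which is 82.8% of control (95% interval 73.3 to 93.6, limma adjusted p = 0.0507 over all genes). All 9 adipocyte markers were above background on 8 of 8 arrays, and 1 of them fell in limma, the leptin gene Lep (change -1.85, adjusted p = 0.00761 over all genes). Skeletal muscle markers moved with the group, with 10 of 12 higher in limma and list means of -1.48 to 1.98 in controls and 3.76 to 5.30 in Senp2-aKO arrays. So did 6 of 6 brown adipocyte markers (list means -0.27 to 0.61 and 3.02 to 4.68). Of 5 mammary epithelial markers 3 were measured and 2 rose, the keratins Krt5 and Krt14, while Krt8 and Epcam were above background on 3 and 1 of 8 arrays (list means -3.79 to -3.42 and -3.10 to -1.28). The progenitor list was also higher on each Senp2-aKO array than on any control (3.12 to 3.75 and 3.82 to 4.17), with 1 of 4 risen. Senp2-aKO 2 had the highest lymphocyte means of all arrays, 1.63 for 6 B cell markers and 2.81 for 5 T cell markers, against at most -0.91 and 0.55 on any other array. In whole tissue, fewer cells of a type and less RNA per cell cannot be told apart.

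Among the 7 measured genes, Sumo3 and Sae1 differed most, both lower in Senp2-aKO fat. Their brightest probes were at 76.8% and 71.4% of control. Pias1 was at 118%, and Sumo2, Uba2, Pias2 and Pias4 were between 87.8% and 110.2%. In absolute size, the changes of Sumo3 and Sae1 stood at percentiles 68.1 and 76.3 of all genes tested. With the brightest probe standing for its gene, 0 of 7 measured genes passed in limma over all 14730 genes, where 14.4% passed (7.12% lower, 7.29% higher). At an unadjusted p under 0.05, 2 of the 7 were lower and 0 higher, against 32.3% of all genes in either direction and 17.6% lower. With the mean of all kept probes of a gene, 2 of the 7 passed, Sumo3 with a change of -0.49 (adjusted p = 0.0233) and Sae1 with -0.52 (adjusted p = 0.0410), where 14.0% of all genes passed. Both also passed with normexp on median signals, which changes the signal column and the background model together (adjusted p = 0.0344 and 0.0480), where 17.8% of all genes passed. Taken probe by probe, 2 of 15 passed, 1 of Sumo3 and 1 of Sae1, both lower, against 9.83% of the 30508 kept probes in either direction and 4.35% lower. The groups did not overlap in 6 of the 15 probes, 5 lower and 1 higher, against 23.1% of kept probes (11.2% lower, 11.9% higher). The 7 genes had a median change of -0.09 and a median absolute change of 0.19, beside -0.02 and 0.24 over all genes tested.

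**Figure D1:**
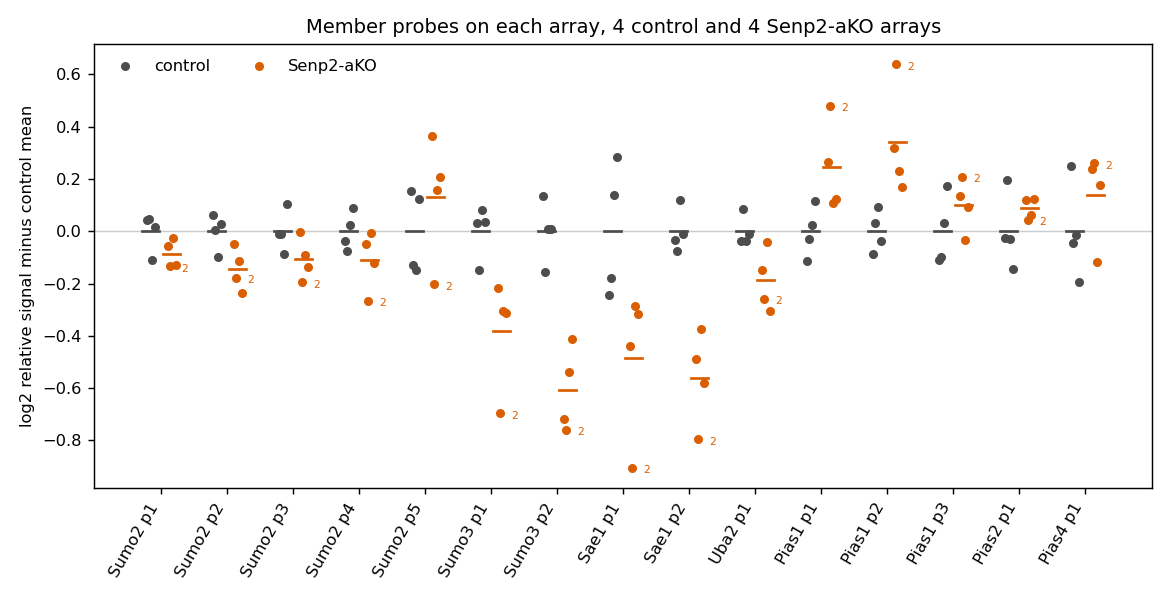
Each point is the log2 relative signal of a probe on 1 array minus the control mean of that probe (vertical axis), for the 15 probes above background (horizontal axis, p1 the brightest of a gene), with bars at group means. Senp2-aKO 2 is marked 2. All Senp2-aKO points of Sumo3 and Sae1 lie below the control points of the same probe, and those of Sumo2 and of Pias2 and Pias4 are mixed with them.

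Sumo3 was read by 2 probes, and both were lower. The brighter one had log2 levels of 1.82, 1.64, 1.86 and 1.82 in controls 1 to 4 and 1.57, 1.09, 1.48 and 1.47 in Senp2-aKO 1 to 4. Every Senp2-aKO array was below every control, with Senp2-aKO 2 lowest. The change was -0.38 (SE 0.12, limma adjusted p = 0.0744 over all genes), or 76.8% of control (95% interval 63.1 to 93.4). The dimmer one had levels of -2.22, -2.51, -2.35 and -2.35 in controls and -3.07, -3.12, -2.89 and -2.77 in Senp2-aKO 1 to 4. Again the groups did not overlap, and here Senp2-aKO 1 and 2 were alike. This probe fell by 0.61 (SE 0.12, adjusted p = 0.0195 in limma over the kept probes), to 65.6% of control (95% interval 54.6 to 78.9). Its processed signal was 38.5 to 87.7 units, where the dimmest probes well above background had 8.79 to 15.6. With normexp on median signals (offset 50) its change was -0.17 (adjusted p = 0.115). Its call also ended with the replicate number as a block (0.0511) and without control 1 (0.0661) or control 3 (0.0577).

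Sumo2 encodes a protein nearly identical to that of Sumo3, and both form chains on their targets. Its brightest probe had log2 levels of 5.52, 5.53, 5.37 and 5.50 in controls 1 to 4 and 5.43, 5.35, 5.46 and 5.35 in Senp2-aKO 1 to 4. The groups overlapped, with control 3 among the Senp2-aKO arrays. The change was -0.09 (SE 0.08, limma adjusted p = 0.495 over all genes), and the 95% interval was 82.9 to 107% of control. Of its 5 probes 4 were lower, with changes from -0.14 to -0.09, and the dimmest was higher at 0.13, and none passed in limma (adjusted p from 0.335 to 0.593 over the kept probes). The coding sequences of both genes are alike and probe sequences were not used here, so whether a probe of one also reads the other was not tested.

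The difference between both SUMO genes was tested within arrays, where division of an array by a single value cancels. The log2 signal of Sumo2 minus that of Sumo3, with the brightest probe of each, was 3.71, 3.89, 3.51 and 3.68 in controls 1 to 4 and 3.86, 4.26, 3.97 and 3.88 in Senp2-aKO 1 to 4. Control 2 lay above Senp2-aKO 1 and 4, so the groups overlapped. The means were 3.70 ± 0.16 and 3.99 ± 0.19 (SD, n = 4 per group), a difference of 0.30 (two-sided exact permutation p = 0.0857, adjusted 0.171 over the 2 ratios tested). All 10 pairings of a Sumo2 probe with a Sumo3 probe gave a difference above 0, from 0.24 to 0.74. In 8 of the 10 the groups did not overlap (exact permutation p = 0.0286 each, not adjusted), though these pairings share probes. Every pairing with the dimmer Sumo3 probe was among them. Both Sumo3 probes already did not overlap when taken alone, as did 23.1% of kept probes. The share over other pairs of probes was not computed. With the mean of all kept probes of each gene the difference was 0.43 (exact permutation p = 0.0286, adjusted 0.0571 over the 2 ratios). Under quantile normalisation, which does not cancel within arrays, it was 0.19 (exact permutation p = 0.171, adjusted 0.229).

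The stretches just before the annotated starts of Sumo2 and Sumo3 are shown for the pair just compared. They come from RefSeq (GRCm38.p6, matched by symbol; the array files name an older build), are 250 bases long each and run 5′ to 3′ on the gene's strand. Capitals mark matches, on either strand, to the motifs searched.
Sumo2, chr11:115536231-115536480, minus strand: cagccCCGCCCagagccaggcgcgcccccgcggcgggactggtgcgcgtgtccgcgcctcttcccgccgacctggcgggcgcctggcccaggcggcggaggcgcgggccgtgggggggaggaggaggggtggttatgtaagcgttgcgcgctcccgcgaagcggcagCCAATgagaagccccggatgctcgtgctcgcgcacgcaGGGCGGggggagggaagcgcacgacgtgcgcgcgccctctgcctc
Sumo3, chr10:77605847-77606096, plus strand: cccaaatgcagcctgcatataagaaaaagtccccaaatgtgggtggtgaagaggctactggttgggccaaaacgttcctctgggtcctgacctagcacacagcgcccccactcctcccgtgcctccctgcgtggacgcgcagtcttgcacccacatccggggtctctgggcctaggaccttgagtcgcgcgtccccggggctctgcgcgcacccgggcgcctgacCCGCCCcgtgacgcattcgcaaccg
The 5 motifs searched on both strands were a C/EBP motif (TTGCNNAA), a cAMP response element (TGACGTCA), the CCAAT box (CCAAT), an ETS motif (CCGGAAG) and the GC box (GGGCGG). Over all 32851 promoters of this length in the table, they matched in 9.56%, 1.55%, 33.8%, 6.91% and 32.7%, in the same order. The Sumo2 stretch held 1 CCAAT box and 2 GC boxes, and that of Sumo3 held 1 GC box. The C/EBP motif was not among the letters of either. CpG pairs numbered 37 before Sumo2 and 20 before Sumo3, beside a median of 6 over all promoters. For 5 of the 8 genes the table held an entry. Sumo3 has 2 further listed starts, whose stretches held 3 GC boxes with 33 CpG pairs and 0 with 2, so the contrast with Sumo2 depends on the start taken. Which start was in use in this tissue was not measured.

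Sae1 and Uba2 encode the subunits of the activating enzyme, and UBA2 carries the catalytic cysteine. Sae1 was read by 2 probes, and both were lower. The brighter one had log2 levels of 1.59, 1.65, 1.97 and 2.11 in controls 1 to 4 and 1.39, 0.93, 1.55 and 1.52 in Senp2-aKO 1 to 4. The groups did not overlap, though control 1 and Senp2-aKO 3 were close and controls spread widely (SD 0.25). The change was -0.49 (SE 0.18, limma adjusted p = 0.104 over all genes), or 71.4% of control (95% interval 53.8 to 94.9). The dimmer one had levels of 0.33, 0.28, 0.48 and 0.35 in controls and -0.13, -0.44, -0.01 and -0.22 in Senp2-aKO 1 to 4. Here the controls lay close together (SD 0.08) and the groups were well apart. This probe fell by 0.56 (SE 0.11, adjusted p = 0.0236 in limma over the kept probes), to 67.8% of control (95% interval 56.5 to 81.4). Its call ended without any 1 of the controls or Senp2-aKO 4 (adjusted p from 0.0532 to 0.0714) and with no filter on background (0.0542).

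Uba2 had 1 probe, with log2 levels of 3.53, 3.66, 3.54 and 3.56 in controls 1 to 4 and 3.43, 3.32, 3.53 and 3.27 in Senp2-aKO 1 to 4. No Senp2-aKO array reached the lowest control, but Senp2-aKO 3 lay just under it, at 3.53 each after rounding. The change was -0.19 (SE 0.09, limma adjusted p = 0.189 over all genes), and the 95% interval was 76.1 to 101% of control. The log2 signal of Uba2 minus that of Sae1 was 1.74 ± 0.28 in controls and 2.04 ± 0.26 in Senp2-aKO arrays (SD, n = 4 per group). The groups overlapped and the difference of 0.30 did not pass (two-sided exact permutation p = 0.171, adjusted 0.171 over the 2 ratios). With the dimmer Sae1 probe the groups did not overlap and the difference was 0.37 (exact permutation p = 0.0286, not adjusted). With the mean of all kept probes it was 0.34 (exact permutation p = 0.0571, adjusted 0.0571), and without Senp2-aKO 2 it was 0.18 (p = 0.343).

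**Figure D2:**
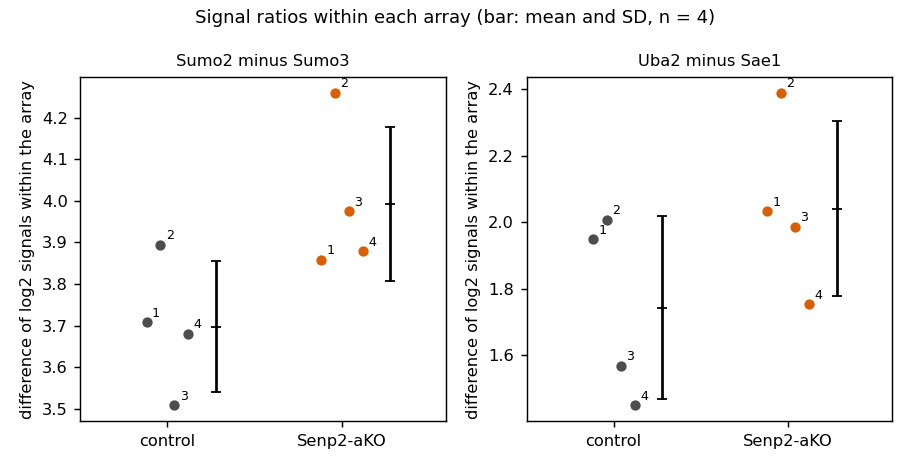
Differences of log2 signals within each array (vertical axis) for Sumo2 minus Sumo3 and Uba2 minus Sae1, with the brightest probe of each gene, by group (horizontal axis); numbers are replicates and bars are mean and SD (n = 4). Both panels show higher means in Senp2-aKO arrays, overlapping groups and Senp2-aKO 2 highest.

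Senp2-aKO 2, the array with the highest lymphocyte means, was the lowest of all for both Sae1 probes and for both Sumo3 probes, and the highest for all 3 Pias1 probes. Without it the changes of the brighter and dimmer Sumo3 probes were -0.28 and -0.56, and those of Sae1 were -0.35 and -0.48. The dimmer probe of each still passed in limma (adjusted p = 0.0263 for Sumo3 and 0.0234 for Sae1, over the kept probes). The muscle, brown adipocyte, keratin and progenitor means were higher on each Senp2-aKO array than on any control, and their part in these changes was not tested.

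PIAS proteins are ligases that speed the transfer of SUMO to chosen targets, and were first known as inhibitors of STAT factors. Pias1 was read by 3 probes, and all were higher. The brightest had log2 levels of 1.79, 1.87, 1.92 and 2.02 in controls 1 to 4 and 2.16, 2.38, 2.01 and 2.02 in Senp2-aKO 1 to 4. Senp2-aKO 1 and 2 were above all controls, and the other two were level with control 4. The change was 0.24 (SE 0.11, limma adjusted p = 0.165 over all genes), and the 95% interval was 99.5 to 141% of control. The second probe had levels of 0.71, 0.83, 0.89 and 0.76 in controls and 1.11, 1.43, 1.03 and 0.96 in Senp2-aKO 1 to 4. Here the groups did not overlap, yet the change of 0.34 (SE 0.12) did not pass (adjusted p = 0.116 in limma over the kept probes). The third gave 0.10 (SE 0.11, adjusted p = 0.567), with overlapping groups. Without Senp2-aKO 2 the 3 changes were 0.17, 0.24 and 0.07.

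Pias2 was read by 1 probe, with log2 levels of 1.10, 1.32, 1.09 and 0.97 in controls 1 to 4 and 1.24, 1.16, 1.18 and 1.24 in Senp2-aKO 1 to 4. All Senp2-aKO arrays lay within the range of the controls. The change was 0.09 (SE 0.09, limma adjusted p = 0.557 over all genes; 95% interval 91.4 to 124% of control), ran from 0.040 to 0.15 on leaving out an array (lowest without control 4, highest without control 2) and turned to -0.0051 when arrays were scaled to their median. Pias4 had levels of -0.48, -0.77, -0.74 and -0.92 in controls and -0.49, -0.47, -0.84 and -0.55 in Senp2-aKO 1 to 4. The groups overlapped, and the change was 0.14 (SE 0.13, limma adjusted p = 0.491 over all genes; 95% interval 89.7 to 135% of control). It was 0.046 with median scaling and ran from 0.075 without control 4 to 0.23 without Senp2-aKO 3. The Pias3 probe had processed signals of 7.61 to 9.94 in controls and 3.19 to 6.53 in Senp2-aKO arrays, on every array under the lowest signal of a probe well above background there. Pias3 was therefore not well above background in either group and no change is given.

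**Figure D3:**
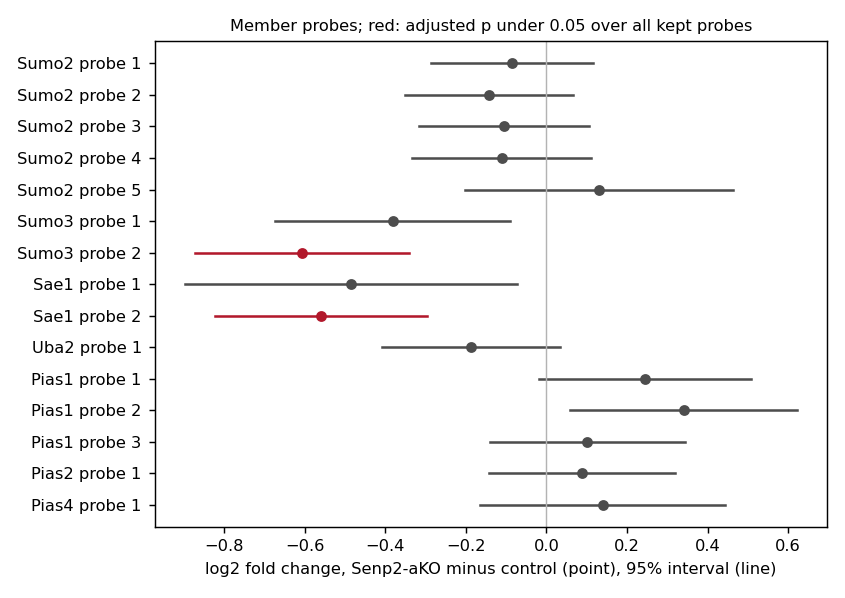
Change of each probe above background, as log2 fold change of Senp2-aKO minus control (point) with its 95% interval (line), from limma over the kept probes; red marks an adjusted p under 0.05. The dimmer probes of Sumo3 (-0.61) and Sae1 (-0.56) are the red ones, and all Pias probes lie above 0.

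Spread and correlations are given here for the brightest probe of each gene, and these probes differed in how steady they were within groups. The SD within groups was 0.06 for Sumo2, a spread that only 2.02% of the 14730 genes matched or undercut, and 0.09 for Uba2 (7.79%). It was 0.27 for Sae1, at 62.7%, and between 0.11 and 0.18 for the others. Other probes of a gene could differ. The dimmest Sumo2 probe had SDs of 0.16 in controls and 0.24 in Senp2-aKO arrays, those between brightest and dimmest 0.07 to 0.11. The dimmer Sae1 probe had 0.08 in controls and 0.18 in Senp2-aKO arrays. In deviations from the group means over the 8 arrays, Sumo3 and Sae1 varied together (r = 0.76), as did Sumo2 and Uba2 (r = 0.69). Pias4 ran against Sae1 (r = -0.69) and Pias1 against Sumo3 (r = -0.59). These values describe 8 arrays that share their scaling, and Senp2-aKO 2 weighs on the values of Sumo3. Over the 7 arrays without it, r was 0.37 for Sumo3 with Sae1 and 0.39, of the opposite sign, for Sumo3 with Pias1. It was 0.64 for Sumo2 with Uba2 and -0.71 for Sae1 with Pias4.

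Over all 8 arrays, group difference included, the genes whose levels followed a member most closely were picked from all 14730 by Pearson's r. For Sumo3 they were Cfl1, which encodes the actin-severing protein cofilin, Dctn5, a subunit of the motor adaptor dynactin, and Ush1g (r = 0.996, 0.993 and 0.991). Dctn5 just passed in limma (change -0.47, adjusted p = 0.0498 over all genes). For Sae1 they were Tmem214, Rgl2 and Gipc1 (r = 0.98, 0.98 and 0.97), and for Uba2 the transcription factor gene Tcf12, Magi3 and Tmem260 (r = 0.996, 0.976 and 0.972). Sumo2 was followed by Dele1, Micall1 and the helicase gene Ddx49 (r = 0.96 each), and Pias1 by Dedd2, 4930506C21Rik and Arhgef3 (r = 0.98 each). Pias2 was followed by Ankrd61, Eif1ad and Mob1b (r = 0.97, 0.94 and 0.93) and Pias4 by Ppp1r1b, Gpx1 and Trnau1ap (r = 0.99, 0.98 and 0.95).

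Of the 20 other genes of the SUMO pathway that are reported here, which are not the whole pathway list, all measured, 0 passed in limma over all genes, where 14.4% passed, with a median change of 0.01, beside -0.02 over all genes tested. At an unadjusted p under 0.05, 2 were lower and 2 higher, against 32.3% of all genes in either direction and 17.6% lower. Of 9 further genes of conjugation, among them Ranbp2 and Nsmce2 for SUMO ligases, 0 were lower and 1 was higher at that level, namely Mul1, which encodes a mitochondrial ligase (change 0.22, SE 0.09, limma adjusted p = 0.122). Mul1 and the proteases below were named after their values were seen. Neither of the 2 genes for ubiquitin ligases that bind SUMO chains, Rnf4 and Rnf111, passed, with changes of 0.13 (SE 0.07, limma adjusted p = 0.262) and -0.06 (SE 0.08, adjusted p = 0.644).

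Of 9 proteases 0 passed, with 2 lower and 1 higher at an unadjusted p under 0.05, a share near the 32.3% of all genes. The lower ones were Senp2 itself, given above, and Senp5, with a change of -0.23 (SE 0.09, limma adjusted p = 0.110). The higher one was Uspl1, which cleaves SUMO outside the SENP family, with 0.35 (SE 0.12, adjusted p = 0.0787). These values are for the brightest probe of each gene. Dimmer probes of Senp5 and Uspl1 kept the sign. A dimmer Senp7 probe was at -0.43, where the brightest was at -0.07 (limma adjusted p = 0.165 and 0.767 over the kept probes). A dimmer Desi1 probe was at 0.32, where the brightest was at 0.03 (adjusted p = 0.137 and 0.891).

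**Figure D4:**
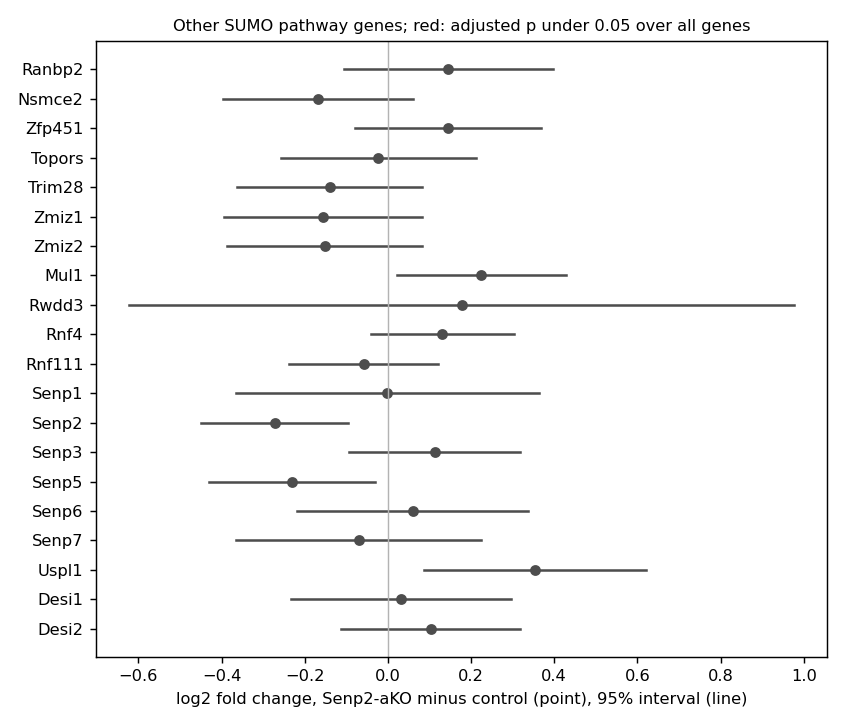
Change of the 20 other SUMO pathway genes as log2 fold change of Senp2-aKO minus control (point) with its 95% interval (line), from limma over all genes; red would mark an adjusted p under 0.05. There is no red point, and the intervals of Mul1 and Uspl1 lie above 0 and those of Senp2 and Senp5 below it.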

How the data were processed

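RNA of iWAT from 8 mice, prepared with TRIzol, was used at 0.5 µg per sample for Cy3 labelling and hybridisation to 1-colour Agilent arrays, per the labels' protocols. Spots were read with Agilent Feature Extraction 11.5.1, per the submitters' processing notes. The deposited processed signals are intensity values corrected for background, per the file headers. Neither they nor the deposited median signals, which come with a background signal beside them, are yet scaled from array to array. The deposited flags for spots above background, saturated or uneven have the unit other (0 or 1). The 8 columns of a deposited normalised matrix match no label and were not used here.

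Processed signals were divided by the 75th percentile of their array and taken to log2, and replicate spots were averaged, leaving out outlier spots. Probes well above background on at least 4 of 8 arrays were kept (30508 of 55681). Of all probes 27656 had 1 gene name, through the RefSeq accession in the files (names of assembly GRCm38.p6), and the brightest kept probe stood for its gene (14730 genes). The comparison used limma 3.58.1 (R 4.3.3). Simulated arrays, with the spread of the controls in both groups, checked only that planted mean changes were recovered. Error rates on the real arrays were not tested. Ratios were compared with an exact permutation test. The number of arrays limits the precision, and p-values set the group difference against the spread between these samples. Alternatives were quantile and median scaling, normexp on median signals, other filters, array weights, a replicate block, the mean of probes and leaving out each array. The genes, the 20 further pathway genes and the marker lists were chosen with earlier results of these data known. Named genes were the members, Senp2, pathway genes that passed, or else the 3 with the lowest unadjusted p, and the 3 genes most like each member. Of the 20 pathway genes reported here 0 passed, and Senp2, Uspl1 and Senp5 had the lowest unadjusted p in limma. Ranbp2, Nsmce2, Mul1, Rnf4, Rnf111, Senp7, Desi1 and the marker genes Lep, Krt5, Krt14, Krt8 and Epcam were named outside this rule. Some genes of the pathway list are not reported here.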

Additional observations from a re-analysis of the deposited data

How the results depend on the processing

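The count of member genes that passed in limma was 0 as reported and on leaving out any 1 array. It was 2 with normexp and 2 with the mean of kept probes (Sumo3 and Sae1 each time), and 1 with array weights (Sumo3, adjusted p = 0.0401), where 17.8%, 14.0% and 25.5% of all genes passed, against 14.4% as reported. The count of member probes that passed was 2 as reported, 3 with normexp, 1 with no filter on background (the dimmer Sumo3 probe), 1 with the replicate block (the dimmer Sae1 probe), and 0 to 2 on leaving out an array. That of the other pathway genes was 0 as reported, 1 with quantile normalisation, 1 with median scaling, 1 with normexp, 1 with probes above background on all arrays, 3 of 20 with array weights, and 0 to 1 on leaving out an array. The Sumo2 minus Sumo3 difference was lowest with quantile normalisation, at 0.19 (exact permutation p = 0.171, adjusted 0.229 over the 2 ratios). It was 0.43 with the mean of kept probes and 0.21 to 0.36 on leaving out an array. Without control 2 its exact permutation p was 0.0286 (adjusted 0.0571 over the 2 ratios). The Uba2 minus Sae1 difference was 0.18 to 0.39 on leaving out an array. Adjusted over both, neither ratio passed under any of the 16 settings run. The group difference in the 75th percentile was -81.2 to -61.0 on leaving out an array, with an exact permutation p of 0.0571 without any 1 of the controls. With median scaling Pias2 turned to -0.0051, for its gene and its probe. The changes of Sumo2, Sumo3, Sae1, Uba2, Pias1 and Pias4 kept their sign under each alternative run. Over all genes, median scaling gave 1312 lower and 772 higher, against 1049 and 1074. Correlations of same-numbered deviations were low (-0.02, -0.08, 0.14 and 0.11), and only replicate 3 had its own number as closest partner. These few values cannot settle whether the samples were paired. With the replicate block, which is also a block of slide columns, 1294 genes passed, against 2123. With that block the ratios cannot reach an exact permutation p under 0.125. The deposited matrix, and array weights for the ratios, were not run. The cause of these shifts was not tested. The low signal of the dimmer Sumo3 probe limits what it can show.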
